A study of Mus musculus with 18 samples.

Results

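NRF2, encoded by Nfe2l2, is the transcription factor that switches on antioxidant and detoxification genes, and it was followed here with its inhibitor and 8 of its classic target genes in the hearts of mice given isoproterenol (ISO) with or without polystyrene (PS) particles. The 10 genes were chosen by name as Nfe2l2, Keap1, Nqo1, Hmox1, Gclc, Gclm, Gsr, Txnrd1, Srxn1 and Txn1, and they are 10 of the 35560 genes found in both deposited count tables. All 10 had enough counts to be among the 14623 genes tested. In resting cells the adaptor KEAP1 holds NRF2 in the cytoplasm and hands it to a CUL3 ubiquitin ligase for destruction. Oxidants and electrophiles modify cysteines of KEAP1, NRF2 then escapes and enters the nucleus, and with a small Maf protein it binds antioxidant response elements near its target genes. In the heart these targets supply glutathione and reduced thioredoxin and are known for limiting oxidative injury. NRF2 is controlled largely at the level of the protein, which these RNA data do not measure.

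The study sequenced poly(A) RNA from whole hearts of male wild-type C57BL/6 mice in 3 groups of 6 libraries, ISO+100 nm PS, ISO+1 µm PS and ISO. Every mouse received ISO, a beta-adrenergic agonist that stresses the heart, by injection under the skin at 2.5 mg/kg/day for 21 days, so no heart without ISO is available for comparison. The particles were given by gavage at 50 mg/kg/day over the same 21 days, and ISO mice were gavaged with water. The labels give no age and no further detail on the individual animals behind the libraries, so p-values measure the spread between these libraries, which may in part be technical. A first sequencing provider (batch 1) handled 5, 4 and 3 libraries of the ISO+100 nm PS, ISO+1 µm PS and ISO groups, and a second (batch 2) handled 1, 2 and 3. Batch is a term in the fit, and both PS groups are set against the same 6 ISO libraries, so the 2 comparisons with ISO are not independent of each other.

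Total counts ran from 14032257 to 22600570 per library. ISO replicate 2, of batch 1, stands apart, with 13152 genes detected against 16562 to 18755 in the other libraries. In that library 78 genes were at 0 that had at least 100 counts in each of the other 17, and no other library had such a gene. The Spearman correlation across genes between a library's deviation from its batch mean and the GC content of the gene ran from 0.12 to 0.37 in PS libraries and from -0.61 to 0.01 in ISO libraries, so base composition moved with the groups. The heart label was checked against 8 cardiac muscle markers, and none of them was at 0 in any library. Whole hearts mix cell types, so fewer cells of a type and less RNA per cell cannot be told apart.

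Promoter sequences are shown first, because the antioxidant response element is the site through which NRF2 reaches its targets. RefSeq promoters of build GRCm38.p6, running from 250 bases before to 50 after the annotated start, matched 7 of the 10 genes in 9 windows. The deposited counts were made on GRCm39, so the coordinates serve only to place the sequence. Hmox1, Gclc and Gsr had no entry. Each window was searched on both strands for TGACNNNGC, the core of the element, where N is any base. The core was found in 4 of the 7 genes, against 14.0% of the 27025 genes in the table and 12.4% of its 32851 windows. Windows of Nfe2l2, Gclm, Txnrd1 and Srxn1 hold it, and they are shown with the core in capitals and with the strand of the gene, together with the window of Nqo1, the gene with the clearest difference in level, which has no match. A match is a description of letters and not a binding site, and the lack of one says only that these letters are not in these 300 bases.
Nfe2l2, chr2:75704614-75704913, minus strand: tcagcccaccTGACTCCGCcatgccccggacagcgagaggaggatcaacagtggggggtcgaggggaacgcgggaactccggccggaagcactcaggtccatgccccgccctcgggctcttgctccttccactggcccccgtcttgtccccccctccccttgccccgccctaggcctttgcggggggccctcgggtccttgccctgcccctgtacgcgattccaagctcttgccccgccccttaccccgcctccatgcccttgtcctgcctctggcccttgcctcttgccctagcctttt
Gclm, chr3:122245307-122245606, plus strand: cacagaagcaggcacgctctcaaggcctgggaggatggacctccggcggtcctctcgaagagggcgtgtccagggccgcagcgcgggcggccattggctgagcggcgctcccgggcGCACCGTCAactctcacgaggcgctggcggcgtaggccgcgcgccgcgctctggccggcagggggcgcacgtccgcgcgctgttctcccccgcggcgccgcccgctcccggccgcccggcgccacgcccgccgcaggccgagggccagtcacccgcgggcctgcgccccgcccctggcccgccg
Txnrd1, chr10:82858956-82859255, plus strand: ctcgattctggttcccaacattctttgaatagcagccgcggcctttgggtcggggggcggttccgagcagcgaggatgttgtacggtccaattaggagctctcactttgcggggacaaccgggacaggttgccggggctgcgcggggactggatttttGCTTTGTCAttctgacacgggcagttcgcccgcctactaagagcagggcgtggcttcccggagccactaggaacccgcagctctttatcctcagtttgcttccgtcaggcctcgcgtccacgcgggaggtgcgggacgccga
Srxn1, chr2:152105274-152105573, plus strand: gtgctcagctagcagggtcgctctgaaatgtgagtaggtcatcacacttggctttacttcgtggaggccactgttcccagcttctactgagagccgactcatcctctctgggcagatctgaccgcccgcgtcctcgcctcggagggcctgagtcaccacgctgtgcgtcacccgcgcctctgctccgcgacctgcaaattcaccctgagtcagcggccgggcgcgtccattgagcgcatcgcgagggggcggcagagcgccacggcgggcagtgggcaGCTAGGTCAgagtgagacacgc
Nqo1, chr8:107403156-107403455, minus strand: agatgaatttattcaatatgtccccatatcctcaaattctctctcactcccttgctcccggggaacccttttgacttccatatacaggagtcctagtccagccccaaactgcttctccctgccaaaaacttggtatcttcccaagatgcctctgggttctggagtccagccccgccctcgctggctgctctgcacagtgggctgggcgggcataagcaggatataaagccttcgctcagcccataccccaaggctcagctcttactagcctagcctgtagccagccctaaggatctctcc
The Nfe2l2 match, TGACTCCGC, begins 240 bases before the start and reads along the gene. The other matches lie on the opposite strand, so the printed strand reads GCACCGTCA in Gclm from 134 bases before the start, GCTTTGTCA in Txnrd1 from 92 bases before it, and GCTAGGTCA in Srxn1 from base 29 after it. The remaining windows of Txnrd1 and those of Keap1 and Txn1 held no match.

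At the level of RNA, Nqo1 and Txn1 passed as lower in ISO+100 nm PS hearts than in ISO hearts, and the other 8 genes did not pass the test. In ISO+1 µm PS hearts Txn1 alone passed, again lower, and no gene of the 10 passed in the higher direction with either particle. Without ISO replicate 2 neither Txn1 call was kept, at log2 fold changes of -0.40 with 100 nm PS and -0.44 with 1 µm PS. The Txn1 difference also does not appear in the group medians over both batches, which are not adjusted for batch. Genes were tested with the quasi-likelihood method of edgeR, p-values were adjusted over all 14623 genes (Benjamini-Hochberg), and an adjusted p under 0.05 counted as passed. With 100 nm PS, 2 of the 10 genes were lower, where 5.69% of all tested genes were lower, 3.88% higher and 9.57% changed either way. With 1 µm PS, 1 of 10 was lower, where 4.5% of all genes were lower, 2.89% higher and 7.39% changed. These counts rest on 1 or 2 genes, and nothing particular to the 10 can be read from them. The median log2 fold change over the 10 was -0.11 with 100 nm PS and -0.05 with 1 µm PS, beside -0.02 and 0.00 over all genes tested.

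**Figure D1:**
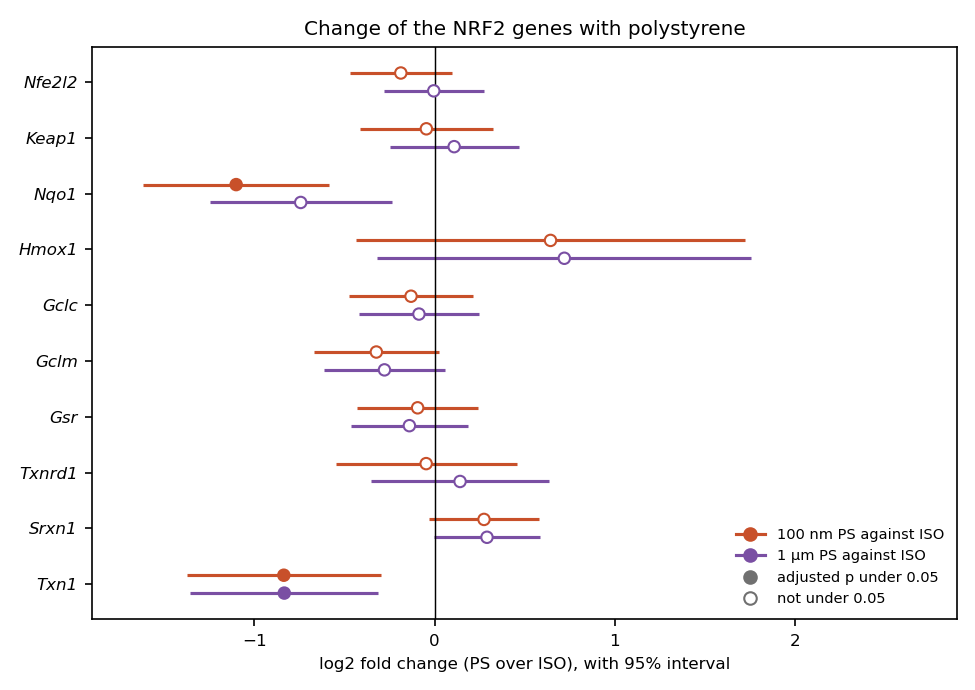
Log2 fold change of each of the 10 genes (horizontal axis, PS over ISO), with its 95% interval, in ISO+100 nm PS against ISO (upper mark of each pair) and in ISO+1 µm PS against ISO (lower mark), 6 libraries a group. Filled marks have an adjusted p under 0.05: Nqo1 with 100 nm PS at -1.10, and Txn1 with both particles at -0.84 and -0.83. The intervals of the other genes span 0, except that of Nqo1 with 1 µm PS, from -1.25 to -0.24.

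Nfe2l2 itself, the gene of the factor, did not pass with either particle. Its level, in CPM (counts scaled by library size and composition factor), had a lowest, median and highest value of 47.1, 54.2 and 56.7 in ISO+100 nm PS hearts, 52.8, 59.3 and 67.1 in ISO+1 µm PS hearts, and 48.8, 57.3 and 77.8 in ISO hearts. The 3 groups overlapped, and the ISO libraries spread most widely. The log2 fold change was -0.19 (SE 0.14, 95% interval -0.47 to 0.10, adjusted p = 0.377) with 100 nm PS and -0.00 (SE 0.13, interval -0.28 to 0.27, adjusted p = 0.988) with 1 µm PS.

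Keap1, which encodes the inhibitor, likewise overlapped between the groups. Its CPM had a lowest, median and highest value of 45.0, 49.5 and 57.6 in ISO+100 nm PS hearts, 49.2, 55.4 and 79.0 in ISO+1 µm PS hearts, and 29.0, 56.9 and 69.0 in ISO hearts. The lowest ISO value is that of ISO replicate 1, a library in which 44.7% of counts were mitochondrial, against 13.9% to 32.1% in the others. Keap1 differed by -0.05 on the log2 scale with 100 nm PS (SE 0.18, adjusted p = 0.888) and by 0.11 with 1 µm PS (SE 0.17, adjusted p = 0.714). Without ISO replicate 1 these values were -0.19 with 100 nm PS and -0.02 with 1 µm PS, and without ISO replicate 2 they were 0.09 with 100 nm PS and 0.23 with 1 µm PS. After GC correction they were -0.62 (adjusted p = 0.0728) with 100 nm PS and -0.43 (adjusted p = 0.220) with 1 µm PS, so the sign depends on the libraries and the correction used. In the GC-corrected fits the median of all genes was -0.16 with 100 nm PS and -0.10 with 1 µm PS.

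Nqo1, which encodes a quinone reductase and is a widely used readout of NRF2 activity, showed the largest difference of the 10 with 100 nm PS. In batch 1 its CPM was 16.6, 18.9, 22.2, 23.7 and 18.7 in the ISO+100 nm PS libraries, 23.1, 28.7, 19.8 and 23.3 in the ISO+1 µm PS libraries, and 44.9, 86.6 and 36.4 in the ISO libraries. No PS library of batch 1 reached the lowest ISO library there. In batch 2 the single ISO+100 nm PS library had 36.6 CPM, the ISO+1 µm PS libraries 53.1 and 40.7, and the ISO libraries 62.1, 41.2 and 41.4. There 1 ISO+1 µm PS library lay within the ISO range and the other just under it, and the ISO+100 nm PS library was lower still.

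Over both batches Nqo1 fell by 1.10 on the log2 scale with 100 nm PS (SE 0.25, 95% interval -1.62 to -0.59, adjusted p = 0.0165). With 1 µm PS the log2 fold change was -0.74 (SE 0.24, interval -1.25 to -0.24, adjusted p = 0.0636), which did not pass by edgeR, while the DESeq2 Wald test gave -0.78 with an adjusted p of 0.0277. Batch 1 alone gave -1.49 (adjusted p = 0.0174) with 100 nm PS and -1.24 (adjusted p = 0.0322) with 1 µm PS. Batch 2 alone gave -0.39 (adjusted p = 0.724) with 100 nm PS and -0.06 (adjusted p = 0.929) with 1 µm PS, with 1 ISO+100 nm PS library that is assumed to vary like the other groups. The change with PS was more negative in batch 1: batch 2 minus batch 1 was 1.09 with 100 nm PS, which rests on 1 batch 2 library. With 1 µm PS it was 1.20 (SE 0.41, unadjusted p = 0.00947, adjusted p = 0.165 by edgeR), which did not pass after adjustment. For this difference between batches with 1 µm PS, 2310 of 14623 genes had an unadjusted p under 0.05 and 17 passed.

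The fall of Nqo1 with 100 nm PS passed with any 1 of the 18 libraries left out, at log2 fold changes from -1.22 to -0.75 and adjusted p from 0.00809 to 0.0472. The smallest change was without ISO replicate 2, the library with the highest Nqo1 level. Without ISO replicates 1 and 2 together it was -0.58 (adjusted p = 0.0602) with 100 nm PS and -0.29 (adjusted p = 0.289) with 1 µm PS. Corrected for GC content, Nqo1 was at -1.28 (adjusted p = 0.0530) with 100 nm PS and -0.89 (adjusted p = 0.138) with 1 µm PS, with the median of all genes at -0.16 and -0.10 in the same fits.

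Hmox1 encodes heme oxygenase 1, which breaks heme down to biliverdin, iron and carbon monoxide, and it pointed the other way from Nqo1 without passing. Its CPM had a lowest, median and highest value of 7.69, 10.3 and 12.0 in ISO+100 nm PS hearts, 9.58, 10.4 and 14.4 in ISO+1 µm PS hearts, and 0, 7.40 and 12.0 in ISO hearts. The 0 is ISO replicate 2, in which a count of 0 allows up to 0.232 CPM, while the other ISO libraries held 84 to 155 counts. Log2 fold changes were 0.64 (SE 0.51, adjusted p = 0.426) with 100 nm PS and 0.72 (SE 0.50, adjusted p = 0.361) with 1 µm PS, and without ISO replicate 2 they were 0.29 with 100 nm PS and 0.40 with 1 µm PS. Hmox1 is also a gene of macrophages that clear red cells, so macrophage and red cell markers were read beside it. By edgeR 0 of 8 macrophage markers passed with either particle, beside 9.57% of all tested genes with 100 nm PS and 7.39% with 1 µm PS. At an unadjusted p under 0.05 edgeR had 1 of the 8 with 100 nm PS, beside 28.6% of all genes. With 1 µm PS it had 0, beside 27.0%, and DESeq2 passed 0 with either particle. Of 3 tested red cell markers edgeR passed 0 with either particle. Hbb-bs, a hemoglobin gene of that list named here after its values were seen, was at -1.35 (edgeR adjusted p = 0.108) with 100 nm PS and -1.43 (adjusted p = 0.0962) with 1 µm PS, and DESeq2 passed it with each particle. Hba-a1 was at -0.48 with 100 nm PS and -0.53 with 1 µm PS, and Alas2 at -0.23 and -0.28. DESeq2 passed neither Hba-a1 nor Alas2. The summed CPM of the macrophage markers ran from 361 to 625 in ISO+100 nm PS hearts, 364 to 575 in ISO+1 µm PS hearts and 329 to 991 in ISO hearts, and no macrophage marker was at 0 in any library. The part of either cell type in the Hmox1 values was not tested.

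**Figure D2:**
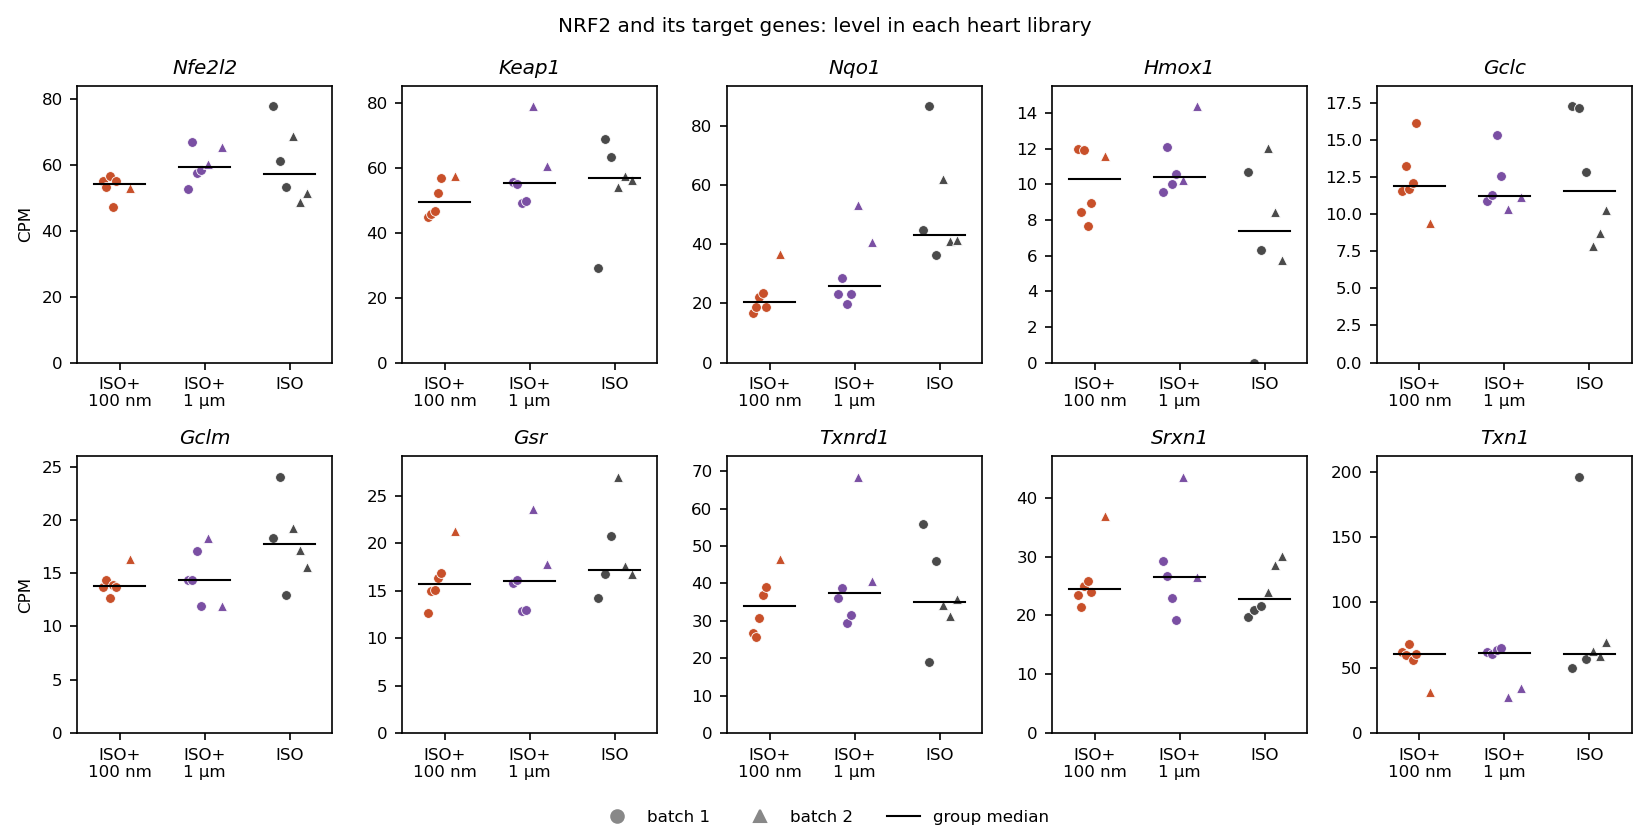
CPM (vertical axis, from 0) of each of the 10 genes in each library of the ISO+100 nm PS, ISO+1 µm PS and ISO groups, with circles for batch 1, triangles for batch 2 and a line at the group median. Nqo1 in batch 1 separates both PS groups from ISO, and Txn1 in batch 2 does so at 27.5 to 34.8 CPM in PS libraries. Txnrd1 in batch 2 does so in the higher direction, at 40.6 to 68.5 CPM in PS libraries. In addition, 1 ISO library stands at 196 CPM for Txn1 and at 0 for Hmox1.

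The 3 glutathione genes did not pass with either particle, by edgeR or by DESeq2, and 0 of them had an unadjusted p under 0.05 by edgeR. Of all tested genes 28.6% had one with 100 nm PS and 27.0% with 1 µm PS, so 3 genes are too few to be set apart from these shares. Gclc and Gclm encode the catalytic and the modifier subunit of glutamate-cysteine ligase, the rate-limiting enzyme of glutathione synthesis, and Gsr encodes the reductase that restores oxidised glutathione. Gclc had a lowest, median and highest CPM of 9.42, 11.9 and 16.2 in ISO+100 nm PS hearts, 10.4, 11.2 and 15.4 in ISO+1 µm PS hearts, and 7.85, 11.6 and 17.3 in ISO hearts. Gclm gave 12.7, 13.8 and 16.3 in ISO+100 nm PS hearts, 11.9, 14.4 and 18.3 in ISO+1 µm PS hearts, and 13.0, 17.7 and 24.0 in ISO hearts. Both genes overlapped between all groups, though the median of Gclm was lower in each PS group. Gsr gave 12.7, 15.7 and 21.3 in ISO+100 nm PS hearts, 12.9, 16.0 and 23.6 in ISO+1 µm PS hearts, and 14.2, 17.2 and 27.0 in ISO hearts. The log2 fold change of Gclm was -0.32 (SE 0.165, interval -0.67 to 0.02, adjusted p = 0.204) with 100 nm PS and -0.28 (SE 0.16, interval -0.62 to 0.06, adjusted p = 0.275) with 1 µm PS. With 100 nm PS it was -0.13 for Gclc and -0.09 for Gsr, and with 1 µm PS -0.09 for Gclc and -0.14 for Gsr, with SEs of 0.16 throughout and adjusted p from 0.594 to 0.763.

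Of the thioredoxin genes, Txn1 passed with both particles, and Txnrd1 and Srxn1 did not pass. Txn1 encodes cytosolic thioredoxin, which keeps protein thiols reduced. Txn1, like Prdx1 and Fth1, has processed pseudogenes with near-identical sequence, and the sources used here do not say how multiply mapped reads were counted, so the counts of these 3 genes are uncertain. In batch 1 its CPM was 62.2, 59.8, 67.8, 55.6 and 60.5 in ISO+100 nm PS libraries, 61.9, 60.2, 63.4 and 64.8 in ISO+1 µm PS libraries, and 50.1, 196 and 56.5 in ISO libraries. Apart from ISO replicate 2, at 196, no ISO library of batch 1 was above the PS range of 55.6 to 67.8. Batch 2 held 31.2 CPM in its ISO+100 nm PS library, 27.5 and 34.8 in its ISO+1 µm PS libraries, and 62.4, 58.8 and 69.4 in its ISO libraries. In that batch every PS library was below every ISO library.

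With all libraries Txn1 fell by 0.84 on the log2 scale with 100 nm PS (SE 0.26, adjusted p = 0.0475) and by 0.83 with 1 µm PS (SE 0.25, adjusted p = 0.0484). Without ISO replicate 2 the values were -0.40 (adjusted p = 0.199) with 100 nm PS and -0.44 (adjusted p = 0.139) with 1 µm PS. The call was kept on leaving out only 2 of the 18 libraries in turn in each comparison, so it lies close to the threshold. With 100 nm PS the change was -0.72 (adjusted p = 0.193) in batch 1 alone and -1.02 (adjusted p = 0.384) in batch 2 alone. With 1 µm PS it was -0.69 (adjusted p = 0.260) in batch 1 alone and -1.05 (adjusted p = 0.0652) in batch 2 alone. Group medians over both batches were 60.2 CPM in ISO+100 nm PS hearts, 61.1 in ISO+1 µm PS hearts and 60.6 in ISO hearts, so the difference does not appear in them. These medians mix the batches in unequal shares and cannot test a change adjusted for batch. In batch 1 the medians were 60.5 in ISO+100 nm PS, 62.7 in ISO+1 µm PS and 56.5 in ISO libraries. In batch 2 they were 31.2, 31.15 and 62.4 in the same order.

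Txnrd1 encodes the cytosolic reductase that recycles thioredoxin with NADPH. Its CPM had a lowest, median and highest value of 25.7, 33.8 and 46.7 in ISO+100 nm PS hearts, 29.4, 37.4 and 68.5 in ISO+1 µm PS hearts, and 19.0, 35.0 and 55.9 in ISO hearts. These ranges overlapped over both batches, and in batch 1 the PS libraries, at 25.7 to 39.1, lay within the ISO range. In batch 2 every PS library was above every ISO library. There the ISO+100 nm PS library had 46.7 CPM, the ISO+1 µm PS libraries 68.5 and 40.6, and the ISO libraries 34.1, 31.4 and 36.0. Log2 fold changes were -0.05 (SE 0.24, adjusted p = 0.917) with 100 nm PS and 0.14 (SE 0.24, adjusted p = 0.733) with 1 µm PS. Srxn1 encodes sulfiredoxin, which rescues overoxidised peroxiredoxins. Its CPM gave 21.5, 24.6 and 37.0 in ISO+100 nm PS hearts, 19.3, 26.6 and 43.6 in ISO+1 µm PS hearts, and 19.8, 22.8 and 30.1 in ISO hearts. The PS medians lay above the ISO median while the ranges overlapped. Srxn1 had log2 fold changes of 0.27 (SE 0.15, interval -0.03 to 0.58, adjusted p = 0.220) with 100 nm PS and 0.29 (SE 0.14, interval -0.01 to 0.59, adjusted p = 0.193) with 1 µm PS. After GC correction they were -0.05 with 100 nm PS and -0.01 with 1 µm PS, so the sign depends on that correction. Both corrected values lay above the median of all genes in the same fits, at -0.16 with 100 nm PS and -0.10 with 1 µm PS.

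**Figure D3:**
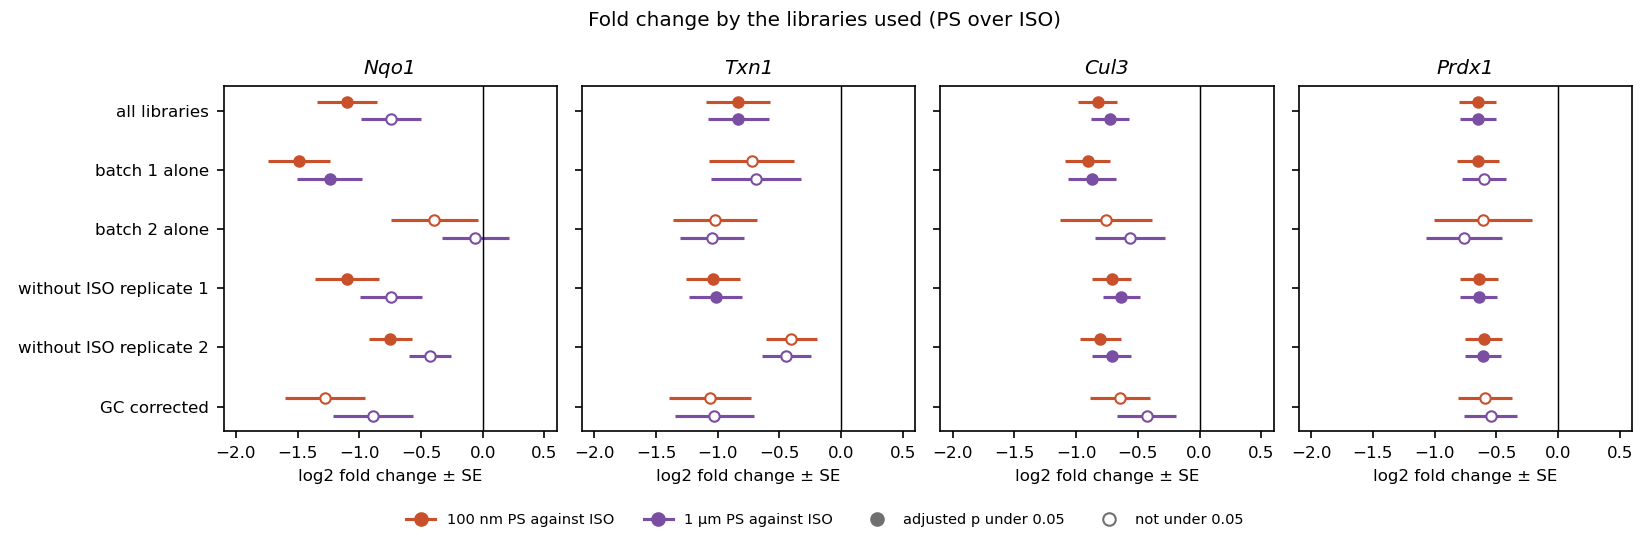
Log2 fold change ± SE (horizontal axis, PS over ISO) of Nqo1, Txn1, Cul3 and Prdx1 with all libraries, in each batch alone, without ISO replicate 1, without ISO replicate 2 and after GC correction, for 100 nm PS (upper mark) and 1 µm PS (lower mark). Filled marks have an adjusted p under 0.05. Nqo1 runs from -1.49 in batch 1 to -0.39 in batch 2 with 100 nm PS, and Txn1 with 100 nm PS from -1.04 without ISO replicate 1 to -0.40 without ISO replicate 2.

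Per kilobase of the longest reference transcript, the level in ISO hearts ran over more than an order of magnitude among the 10 genes. The median CPM per kilobase in ISO hearts was 57.7 for Txn1, 27.8 for Nqo1, 23.1 for Nfe2l2, 15.8 for Keap1, 9.67 for Txnrd1, 8.09 for Srxn1, 6.43 for Gsr, 4.71 for Hmox1, 3.38 for Gclc and 3.17 for Gclm. Among neighbours in this order only Nfe2l2 and Keap1 had ISO ranges that do not overlap, at 19.7 to 31.4 and 8.03 to 19.1. For Nqo1 the median level per kilobase was 13.2 in ISO+100 nm PS hearts and 16.7 in ISO+1 µm PS hearts, against 27.8 in ISO hearts. The order of Nqo1 and Nfe2l2 within a library differed by batch. In batch 1 Nqo1 was above Nfe2l2 per kilobase in 0 of 9 PS libraries and 2 of 3 ISO libraries, and in batch 2 in 2 of 3 PS libraries and 3 of 3 ISO libraries.

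Across the 18 libraries, with each batch centred, the tested genes whose log2 CPM followed Nqo1 most closely were Slc30a9 (Spearman rho 0.93), Stau2 (0.93) and Map3k20 (0.92). For Nfe2l2 they were Ndufab1-ps (0.71), Tmem185a (0.71) and Klhl32 (0.70). These are descriptions over 18 libraries that share groups, batches and base composition, and none of the other NRF2 genes was among them.

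The rest of the pathway was read from a list of 44 genes in 6 groups, of which 40 were tested and Slc7a11, Gsta2, Gstm3 and Gpx2 were too low. With 100 nm PS 2 fell and none rose, and with 1 µm PS 2 rose and 3 fell. Of all tested genes 5.69% fell and 3.88% rose with 100 nm PS, and 4.5% fell and 2.89% rose with 1 µm PS. At an unadjusted p under 0.05 edgeR had 28.6% of all genes with 100 nm PS and 27.0% with 1 µm PS, the shares beside which such counts in the groups of the list stand. The median log2 fold change of the 40 was -0.02 with 100 nm PS and 0.00 with 1 µm PS, beside the same rounded values over all genes. The core motif was in the promoter windows of 12 of 41 list genes with an entry (29.3%).

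Among 8 partners and regulators of NRF2, 1 fell with 100 nm PS, and 2 rose and 1 fell with 1 µm PS. At an unadjusted p under 0.05 there were 4 of the 8 with 100 nm PS and 5 with 1 µm PS. DESeq2 also passed Rbx1 with both particles and Mafk with 1 µm PS, genes named here after their values were seen. Rbx1, the RING subunit of the CUL3 ligase, was at -0.66 (edgeR adjusted p = 0.0789) with 100 nm PS and -0.74 (adjusted p = 0.0514) with 1 µm PS, and Mafk, a small Maf, at 0.58 (adjusted p = 0.107) with 100 nm PS and 0.69 (adjusted p = 0.0601) with 1 µm PS. Cul3, which encodes the scaffold of the ligase that destroys NRF2, fell with both particles. In batch 1 its CPM ran from 71.0 to 98.0 in the 5 ISO+100 nm PS libraries and from 74.4 to 101 in the 4 ISO+1 µm PS libraries, while the ISO libraries had 189, 161 and 121. No PS library of batch 1 reached an ISO library. Batch 2 had 51.0 CPM in the ISO+100 nm PS library, 64.7 and 54.4 in ISO+1 µm PS libraries and 93.1, 63.3 and 103 in ISO libraries. There 1 ISO+1 µm PS library was above the lowest ISO library. The log2 fold change of Cul3 was -0.83 (SE 0.16, adjusted p = 0.0112) with 100 nm PS and -0.73 (SE 0.15, adjusted p = 0.0155) with 1 µm PS, and it passed with any 1 library left out.

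Cul3 has a GC content of 38.5% in its longest transcript, and corrected for GC content its log2 fold change was -0.64 (adjusted p = 0.105) with 100 nm PS and -0.43 (adjusted p = 0.320) with 1 µm PS, so that the value with 1 µm PS shrank by more than 1.5 times. Maff encodes a small Maf partner of NRF2, and Sqstm1 encodes p62, which can draw KEAP1 away from NRF2. Maff differed by 0.53 (adjusted p = 0.117) with 100 nm PS and rose by 0.70 (SE 0.21, adjusted p = 0.0464) with 1 µm PS. Sqstm1 differed by 0.31 (adjusted p = 0.190) with 100 nm PS and rose by 0.49 (SE 0.15, adjusted p = 0.0487) with 1 µm PS. With 1 library left out in turn the rise of Maff passed in 5 of 18 fits and that of Sqstm1 in 3 of 18, and without ISO replicate 2 they were 0.50 and 0.39. The longest transcripts have a GC content of 57.6% in Maff and 54% in Sqstm1, and GC correction ended both calls. Maff was then at 0.01 (adjusted p = 0.973) with 100 nm PS and 0.21 (adjusted p = 0.509) with 1 µm PS, and Sqstm1 at -0.04 (adjusted p = 0.885) and 0.16 (adjusted p = 0.536). The corrected values of Cul3, Maff and Sqstm1 stand beside a median of all genes of -0.16 with 100 nm PS and -0.10 with 1 µm PS.

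In the thioredoxin and peroxide group, 1 of 5 genes fell with each particle. Prdx1 encodes a peroxiredoxin that removes hydrogen peroxide and is recycled by thioredoxin. Its CPM ran from 161 to 213 in ISO+100 nm PS hearts, 175 to 207 in ISO+1 µm PS hearts, and 231 to 417 in ISO hearts. All 12 PS libraries lay below all 6 ISO libraries. Prdx1 fell by 0.65 on the log2 scale with 100 nm PS (SE 0.15, adjusted p = 0.0181) and by 0.65 with 1 µm PS (SE 0.15, adjusted p = 0.0192), and the only library whose removal ended a call was ISO+100 nm PS replicate 6 (adjusted p = 0.0548 with 100 nm PS). After GC correction Prdx1 was at -0.59 (adjusted p = 0.102) with 100 nm PS and -0.55 (adjusted p = 0.168) with 1 µm PS. The median of all genes was then -0.16 with 100 nm PS and -0.10 with 1 µm PS. Catalase, Txn2, Txnrd2 and Txnip did not pass, with log2 fold changes from -0.25 to 0.09.

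In the glutathione supply and transferase group 0 of 7 tested genes passed with 100 nm PS by edgeR, with 5 at an unadjusted p under 0.05 beside 28.6% of all genes, while DESeq2 passed Gsta3. With 1 µm PS 1 of the 7 fell. Gsta1 encodes a glutathione transferase whose reads can be shared with the near-identical Gsta2, so its count is uncertain. Its CPM ran from 0.187 to 0.776 in ISO+100 nm PS hearts, 0.136 to 0.353 in ISO+1 µm PS hearts and 0.413 to 3.42 in ISO hearts, a level near the limit of the filter. On the log2 scale Gsta1 differed by -1.30 (SE 0.50, adjusted p = 0.0982) with 100 nm PS and fell by 2.03 (SE 0.51, adjusted p = 0.0261) with 1 µm PS, a call kept on leaving out 13 of the 18 libraries in turn. Gsta3, another transferase, gave -0.96 (adjusted p = 0.0917 by edgeR) with 100 nm PS and -0.19 (adjusted p = 0.765) with 1 µm PS, and without ISO replicate 2, which had 34.1 CPM against 5.001 to 19.0 in the other libraries, -0.32 and 0.43.

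No gene of the NADPH supply group (6), the detoxification and export group (9) or the heme and iron group (5) passed with either particle by edgeR, while DESeq2 passed Idh1 and Tkt with 100 nm PS. At an unadjusted p under 0.05 edgeR had 3 NADPH genes with each particle, 0 detoxification genes with 100 nm PS and 2 with 1 µm PS, and 1 heme and iron gene with each, beside 28.6% of all genes with 100 nm PS and 27.0% with 1 µm PS. The gene with the smallest p in the NADPH group was Tkt, of the pentose phosphate pathway, at 0.60 (adjusted p = 0.0559) with 100 nm PS and 0.46 (adjusted p = 0.119) with 1 µm PS. In the detoxification group Ugdh, which makes UDP-glucuronate, gave 0.34 with 100 nm PS and 0.01 with 1 µm PS, and Osgin1 gave 0.66 with 100 nm PS and 0.96 with 1 µm PS, with adjusted p from 0.134 to 0.985. Fth1, the ferritin heavy chain that stores iron, gave -1.11 (adjusted p = 0.0633) with 100 nm PS and -0.97 (adjusted p = 0.0990) with 1 µm PS. ISO replicate 2 had 9588 CPM of Fth1 while the other libraries had 1282 to 2858, and without it the log2 fold changes were -0.19 with 100 nm PS and -0.15 with 1 µm PS.

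**Figure D4:**
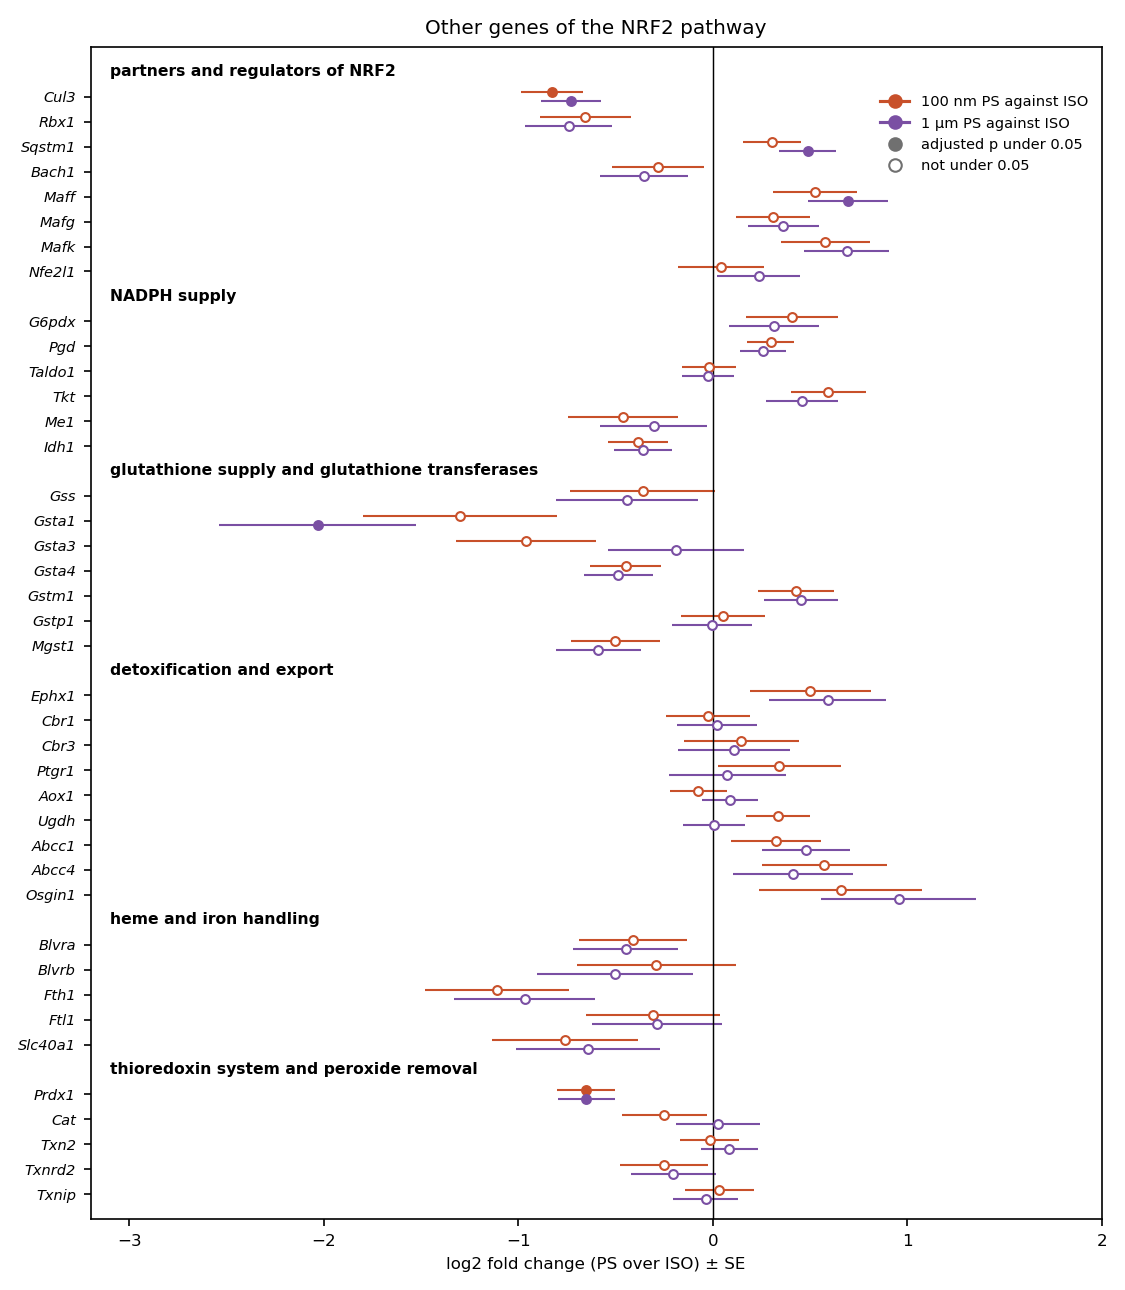
Log2 fold change ± SE (horizontal axis, PS over ISO) of the 40 tested genes of the wider NRF2 pathway, by function, for 100 nm PS (upper mark) and 1 µm PS (lower mark). Filled marks have an adjusted p under 0.05: Cul3 and Prdx1 are lower with both particles, Gsta1 is lower with 1 µm PS, and Maff and Sqstm1 are higher with 1 µm PS.

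Some markers of other cell types passed against ISO. Of all tested genes 3.88% were higher and 5.69% lower with 100 nm PS, and 2.89% higher and 4.5% lower with 1 µm PS. A single call in a list this short cannot be set apart from these shares. Of 6 smooth muscle and pericyte markers 4 were higher with each particle. Rgs5 of the same list pointed the other way without passing, at -0.25 with 100 nm PS and -0.17 with 1 µm PS. The summed CPM of the 6 ran from 1336 to 1904 in ISO+100 nm PS hearts, 1273 to 2010 in ISO+1 µm PS hearts and 492 to 1701 in ISO hearts. Of 6 endothelial markers Eng was higher with each, with sums of 1472 to 2383 in ISO+100 nm PS, 1573 to 2426 in ISO+1 µm PS and 602 to 1757 in ISO hearts. Of 6 fibroblast markers Col1a1 was higher with 100 nm PS, with sums of 1013 to 2161 in ISO+100 nm PS, 777 to 1829 in ISO+1 µm PS and 671 to 1627 in ISO hearts. Of 8 cardiac muscle markers Pln was lower with each, with sums of 37430 to 81080 in ISO+100 nm PS, 44040 to 109800 in ISO+1 µm PS and 33620 to 88110 in ISO hearts. Myh6 of that list pointed the other way without passing by edgeR, at 0.46 with 100 nm PS and 0.62 with 1 µm PS. DESeq2 passed Myh6 with 1 µm PS. The median log2 fold change of the 8 was -0.28 with 100 nm PS and -0.13 with 1 µm PS. None of these 4 lists had a gene at 0. Myl4, 1 of 3 tested atrial markers, was higher and Tnnt3, 1 of 3 tested skeletal muscle markers, lower with 100 nm PS, and no adipocyte marker was tested. The part of these shifts in the values of Nqo1, Txn1, Cul3 and Prdx1 was not tested.

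Set directly against each other at the same dose and duration, the particle sizes gave no gene of the 10 that passed, and none of the 40 tested genes of the wider list, where 0% of all tested genes passed. By edgeR 49 of 14623 genes (0.335%) had an unadjusted p under 0.05, and DESeq2 passed 0 genes with 74 under that value. A calibrated test would put a share of about 0.05 there without any difference, so this comparison is conservative. Its estimate of the spread is shared with the ISO libraries, and without ISO replicates 1 and 2 together the edgeR number was 213. The log2 fold change of 1 µm over 100 nm PS ran from -0.05 in Gsr (interval -0.37 to 0.28) to 0.36 in Nqo1 (SE 0.24, interval -0.15 to 0.87), and every adjusted p of the 10 was 1.00. For Nqo1 the median was 26.0 CPM in ISO+1 µm PS hearts and 20.6 CPM in ISO+100 nm PS hearts, with overlapping ranges. Txn1 was at 0.00 (interval -0.51 to 0.52), Nfe2l2 at 0.18 (interval -0.10 to 0.46), and Hmox1 at 0.08 with the widest interval, from -0.94 to 1.09. The intervals of Nqo1, Txn1, Hmox1, Txnrd1 and Keap1 still hold differences of over 0.5 on the log2 scale, so the test does not show that the sizes act alike.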

How the data were processed

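Heart RNA was sequenced as poly(A) libraries by 2 providers, per the labels' protocols. The authors deposited raw whole-number counts for batch 1. For batch 2 they deposited estimated counts, which were rounded, since 19.6% of the nonzero ones carry decimals. Listed in the submitters' processing notes are GRCm39 (mm39) as the build and, as tools, HISAT2 2.0.5, featureCounts 1.5.0-p3, StringTie 1.3.3b, DESeq2 and fastp. Which counter made which table, its strand setting and its handling of multiply mapped reads are not given in the sources used here.

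The tables were joined on 35560 genes, 22146 by pairs of Entrez and Ensembl numbers and 13414 by a symbol found once in each table. Joined genes held 98.9% to 99.5% of counts in batch 1, and in batch 2 93.1% to 95.8% in PS libraries and 85.2% to 87.4% in ISO libraries. Batch 1 entries without a gene name (215, 0.16% to 0.39% of counts) were left out. Counts were fitted with edgeR 4.0.16 under R 4.3.3 (TMM factors, filterByExpr with a minimum count of 10, a quasi-likelihood fit of batch and group over 18 libraries, 14 residual degrees of freedom). Adjusted p-values are Benjamini-Hochberg values over 14623 genes, intervals are 95% intervals of the log2 fold change, and they cover the spread between libraries. No 2 libraries of the same group and batch agreed within sampling noise, and pairs across batches were not compared. The code was tested on simulated data.

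The members and lists were chosen with earlier results of these data known. Genes described in full are the 10 members, every gene of the wider pathway list that passed against ISO, and the gene with the smallest p in each group of that list and comparison. Alternatives were RLE factors, no filter, the DESeq2 1.42.0 Wald test, no batch term, each batch alone, a replicate block, a GC correction (a spline with 5 degrees of freedom on the deviation of a library from the mean of its batch), and removal of libraries. The batch-by-group term was added after seeing the data.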

Additional observations from a re-analysis of the deposited data

Results flagged for a closer look

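A library was flagged where its value lay far from the other 5 of its group. Of 30 groups examined (10 genes in 3 groups) 6 had such a library. Values were pooled over both batches and the 30 groups share the same libraries, so this count cannot be set against a rate of chance. ISO+100 nm PS replicate 6, the single batch 2 library of its group, was high for Nqo1 (36.6 CPM, the nearest other library at 23.7) and Srxn1 (37.0, nearest 25.8) and low for Txn1 (31.2, nearest 55.6). ISO+1 µm PS replicate 5, also of batch 2, was high for Txnrd1 (68.5, nearest 40.6). In batch 1, ISO replicate 2 was high for Txn1 (196, nearest 69.4) and ISO replicate 1 was low for Keap1 (29.0, nearest 54.1). The causes were not tested.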

How the results depend on the processing

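With all libraries 2 and 1 of the 10 genes, 2 and 5 of the wider list and 1399 and 1081 of all genes passed with 100 nm and 1 µm PS. Without a batch term, and with the replicate block, no gene passed in either comparison (0 of the 10, 0 of the wider list, 0 of all), with 2759 and 2358, and 2822 and 2875, genes at an unadjusted p under 0.05. The replicate numbers are not stated to pair mice. In the residuals of the batch and group fit, 3 of 18 same-number pairs correlated above 0.1 (range -0.44 to 0.23). Of the 18 libraries 0 correlated best with its own number. This check cannot exclude a pairing, since the fit constrains the residuals and some same-number libraries lie in different batches. GC correction left 0 of the 10, 0 of the wider list and 1 and 2 of all genes (3979 and 2987 at an unadjusted p under 0.05). Batch 2 alone left 0, 0 and 4 and 13, and 2 genes for 1 µm against 100 nm PS. Batch 1 alone gave 1 of the 10 with each particle, 4 and 2 of the wider list, and 666 of all genes with 1 µm PS. DESeq2 gave 2 of the 10 with each, 6 of the wider list with 100 nm PS, and 2607 and 2322 of all genes. No filter gave 1 and 0 of the 10, 2 of the wider list with 1 µm PS, and 717 and 481 of all genes. Without ISO replicates 1 and 2, 0 of the 10 passed with 100 nm PS, and 709 of all genes. Leaving out 1 library in turn gave 1 to 2 and 0 to 2 of the 10, 1 to 6 and 2 to 10 of the wider list, and 183 to 2288 and 286 to 2385 of all genes.

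Genes that had not passed changed sign in some fits (log2 fold changes). GC correction also moved the median of all genes, to -0.16 with 100 nm PS and -0.10 with 1 µm PS. With 100 nm PS, GC correction gave -0.046 in Srxn1 and -0.038 in Sqstm1. Batch 2 alone gave 0.043 in Keap1, 0.071 in Gclc, 0.064 in Gsr, 0.47 in Txnrd1 and -0.083 in Osgin1. Without a batch term Gclc was 0.0022, and without ISO replicates 1 and 2 Gclc was 0.092 and Txnrd1 0.036. With 1 µm PS, GC correction gave -0.43 in Keap1 and -0.013 in Srxn1, batch 1 alone -0.0435 in Keap1 and -0.26 in Txnrd1, and batch 2 alone 0.14 in Nfe2l2, 0.24 in Gclc and -0.25 in Ugdh. Nfe2l2 was 0.0012 without a batch term, 0.023 without a filter, 0.024 with the replicate block and 0.12 without ISO replicates 1 and 2, where Gclc was 0.10, Gsta3 0.26 and Ugdh -0.052. Ugdh was -0.011 by DESeq2 and -0.015 with RLE factors. For 1 µm against 100 nm PS, Gsr was 0.029 without a batch term. With 1 library left out, values ran from -0.14 to 0.015 (Gsr), -0.19 to 0.090 (Keap1) and -0.20 to 0.21 (Txnrd1) with 100 nm PS, and from -0.39 to 0.43 (Gsta3), -0.024 to 0.23 (Keap1), -0.056 to 0.094 (Nfe2l2), -0.051 to 0.36 (Txnrd1) and -0.092 to 0.074 (Ugdh) with 1 µm PS. The causes were not tested. Depth limits what can be read of Gsta1, at 0.136 to 3.42 CPM.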
